A study of Caenorhabditis elegans with 4 samples.

Results

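The NURF-1 peaks of chromosome III were examined: 2220 of the 11796 peaks in the list deposited for the whole series, and of its 11781 nuclear peaks. They were taken by chromosome alone, with no filter on score or width, but the chromosome was chosen with earlier results of these data known. NURF-1 was profiled by chromatin immunoprecipitation and sequencing (ChIP-seq) in L3 larvae of Caenorhabditis elegans, in 2 ChIP libraries beside 2 libraries of input DNA. All 4 libraries came from wild-type N2 worms, males and hermaphrodites together, cultured at 20 °C and crosslinked with EGS and then EGS plus formaldehyde. The antibody was an affinity-purified rabbit polyclonal. Whole larvae were used, so a peak does not say in which cells NURF-1 was bound, and nothing in the labels says whether the replicates were separate cultures. The input libraries gave no values for use here, and the peak lists hold no read counts, so the depth behind a peak is unknown.

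NURF-1 is the worm counterpart of mammalian BPTF, the largest subunit of the nucleosome remodelling factor NURF. The complex slides nucleosomes through an ATPase of the ISWI class, and in mammals BPTF recognises histone H3 methylated at lysine 4, a mark of active promoters, through its PHD finger. Worm chromosomes are holocentric. On the autosomes, the gene-dense centre recombines little and carries many genes of general cell function, while the arms recombine more and are richer in repeats and in heterochromatin marks. Here the centre of chromosome III is the stretch from 3.722 to 10.340 Mb, with the left arm below and the right arm above it, and a peak belongs to the zone that holds its midpoint.

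Chromosome III was dense in NURF-1 peaks, and its strongest and its most crowded stretches were different ones. In the whole-series list the centre had the highest median score and median width, whereas the right arm had the most peaks per Mb, many of them narrow and low in score. The centre also led in both medians on the other autosomes. The left arm of III had the fewest peaks, yet it held the best-scored peak of the genome. Coordinates are those of the WS220 assembly (ce10). Genes are not named, because builds were not mixed and no annotation of WS220 was used; gene content and sequence under the peaks were not analysed here. Shares carry 95% Wilson intervals, and densities and their ratios carry exact 95% intervals. All of these cover counting error only and treat peaks as independent.

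The best-scored peak on III lay in the left arm at chrIII:1618385-1619903 and was 1519 bp wide. Its score was 349.58 in the whole-series list, 449.81 in replicate 1 and 373.73 in replicate 2, and it ranked 1 in each of the 3 lists, tied for that rank in replicate 2. The sources used here do not say what unit the score has, so scores are compared between peaks of one list and not between lists. The next peak, in the centre at chrIII:3867096-3868198 (1103 bp), scored 344.65 in the whole-series list, 414.70 in replicate 1 and 363.13 in replicate 2. Another in the centre, at chrIII:7854353-7855284 (932 bp), scored 341.90 in the whole-series list, 376.53 in replicate 1 and 373.73 in replicate 2. These peaks were the best 3 of replicate 1 over all chromosomes, and all 3 stood among the 6 highest ranks of replicate 2.

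Below them the replicates ordered the sites differently. The left-arm peak at chrIII:1950026-1950977 scored 339.20 in the whole-series list, 257.09 in replicate 1 and 342.03 in replicate 2. In the centre, the peak at chrIII:7179086-7180428 scored 339.10, 193.44 and 344.47 in the same order of lists. A further peak of the centre at chrIII:7207517-7208585 scored 337.54, 304.47 and 331.46. Both lie within the 500 kb window with the most replicate 1 peaks on the chromosome. At chrIII:354269-355901, in the left arm, a peak 1633 bp wide scored 316.07 in the whole-series list, 42.17 in replicate 1 and 359.38 in replicate 2. It ranked 8 in replicate 2 and 627 in replicate 1, the widest such disagreement among the best 20.

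All 20 best-scored peaks on III overlapped a peak of both replicates, and 19 of them overlapped exactly 1 peak of each. Of the 20, 12 lay in the centre, 5 in the left arm and 3 in the right arm. They were 759 to 1633 bp wide, with a median of 1141 bp. In replicate 2 their scores spanned 323.01 to 373.73, with a median of 342.3. In replicate 1 they spanned 42.17 to 449.81, with a median of 186.7, and 11 of the 20 scored below 200. The right arm entered this group late: its best peaks were chrIII:13643321-13644079 (325.59), chrIII:10633800-10634956 (322.12) and chrIII:13462309-13463601 (312.26), at ranks 41, 46 and 68 of the whole-series list. Replicate 1 placed them at ranks 142, 88 and 110, and replicate 2 at 23, 59 and 68.

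**Figure D1:**
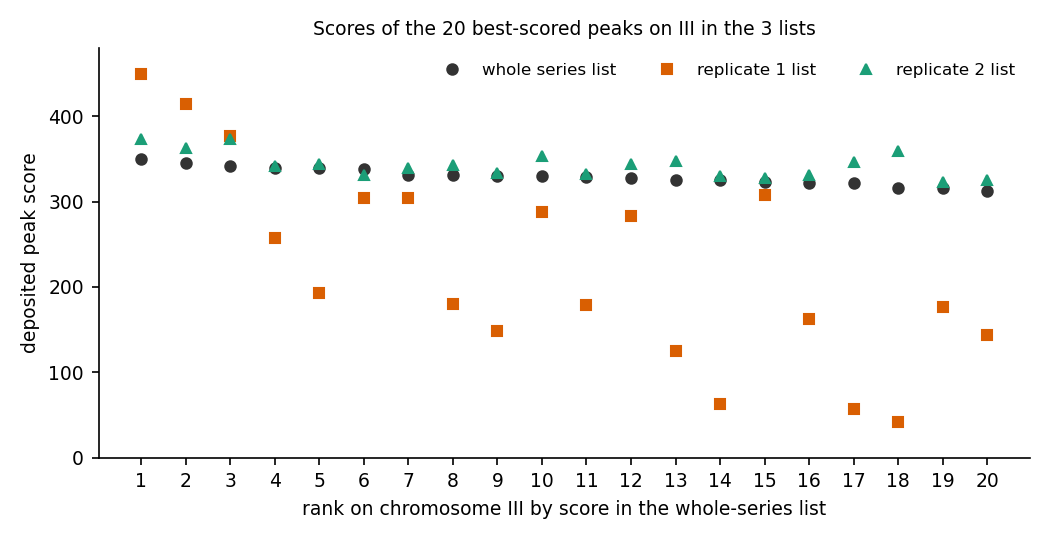
Deposited peak scores (y axis, scale not stated) of the 20 best-scored chromosome III peaks of the whole-series list, in order of that list (x axis), with the score of the best overlapping peak in each replicate list. Replicate 2 scores stay between 323.01 and 373.73, while replicate 1 scores run from 449.81 down to 42.17; levels are not comparable between lists.

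The share of III among the strongest peaks varied with the number of peaks taken and with the list. Chromosome III holds 13.7% of the nuclear length and 18.8% of the nuclear whole-series peaks. It held 27 of the 100 best-scored nuclear peaks (27.0%, 19.3 to 36.4), of which 15 lay in the centre, 7 in the left arm and 5 in the right arm. In replicate 1 it held 21 of the best 100, and in replicate 2 28 of the best 100. Among the best 1000 the share was 21.8% (19.4 to 24.5) in the whole-series list, 21.1% in replicate 1 and 21.3% in replicate 2. Among the best 500 it was 19.8% (16.5 to 23.5), an interval that includes the 18.8% of the whole list, and in replicate 1 it was 18.6% (15.4 to 22.2), below the 19.6% that III holds of that list. Both this interval and the one for the best 100 of replicate 1 (14.2 to 30.0) include that 19.6%.

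The whole-series list gave 161 peaks per Mb on III (154 to 168), the highest of the 6 nuclear chromosomes. Chromosome I followed at 156 per Mb (149 to 162). The ratio of III to I was 1.04 (0.976 to 1.10), so these neighbours in the order did not differ beyond counting error. Chromosomes IV and II came next at 118 and 116 per Mb, and V and X last at 88.2 and 87.0. Against these, III was 1.37 times as dense as IV (1.29 to 1.45), 1.39 times as dense as II (1.30 to 1.48), 1.83 times as dense as V (1.72 to 1.94) and 1.85 times as dense as X (1.73 to 1.98). Each of these 4 intervals lies above 1.

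Each replicate list also put III first and I second. Replicate 1 had 950 peaks on III, or 68.9 per Mb, beside 67.0 on I and 28.1 on X. Replicate 2 had 2219 peaks on III, or 161 per Mb, beside 154 on I and 88.6 on X. The density of III over that of the other 5 chromosomes pooled was 1.46 in the whole-series list (1.39 to 1.53), 1.53 in replicate 1 (1.42 to 1.64) and 1.46 in replicate 2 (1.39 to 1.53). As a difference from the mean of the other 5 chromosomes (113 ± 28.0 peaks per Mb, SD, n = 5), the whole-series value gave p = 0.167 in an exact two-sided permutation test over chromosomes. That is the smallest p that 6 chromosomes allow, so this comparison could not have reached significance. In replicate 1 the exact permutation p was 0.333.

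**Figure D2:**
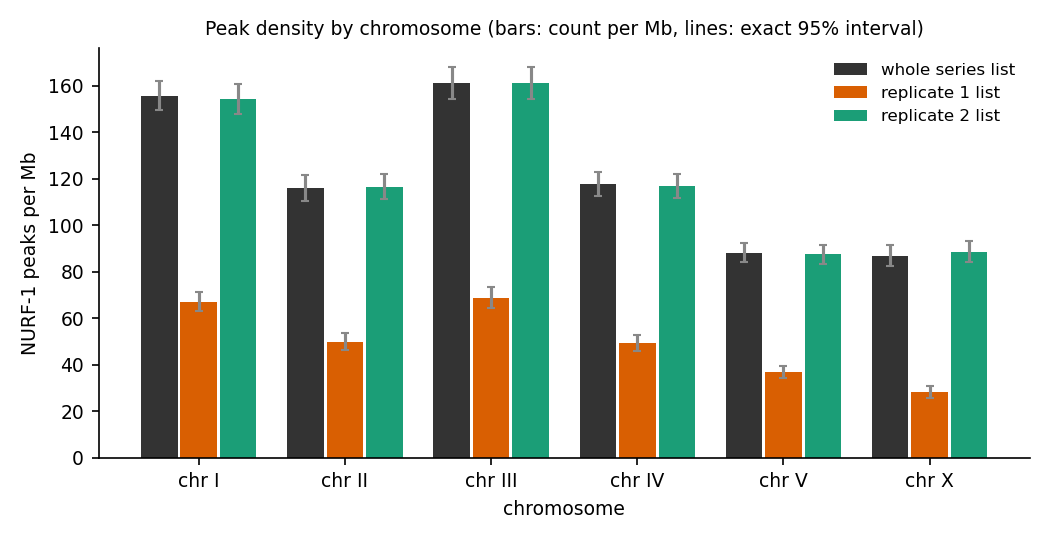
NURF-1 peaks per Mb (y axis, linear from 0) on each nuclear chromosome (x axis) in the 3 deposited lists, with exact 95% intervals for the count. Chromosome III is the highest in each list, at 161 per Mb in the whole-series list, 68.9 in replicate 1 and 161 in replicate 2, with I next and within counting error of it.

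The excess on III was present over the whole range of scores. When the nuclear peaks of the whole-series list were put into 5 score groups, III was 1.45 times as dense as the other chromosomes in the lowest-scored 20% (1.31 to 1.61). In the groups above, the ratio was 1.42, 1.39 and 1.33, and in the best-scored 20% it was 1.69 (1.53 to 1.87). In replicate 1 the ratio was 1.54 in the lowest-scored 20% (1.31 to 1.81) and 1.68 in the best-scored 20% (1.43 to 1.96). Width and score of the peaks on III were close to those elsewhere. Their median width was 361.5 bp and their median score 18.26, against chromosome medians of 329.5 to 361 bp and 14.01 to 18.82 elsewhere in the whole-series list.

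Within III, the left arm held 501 peaks, the centre 1078 and the right arm 641. This gave 135 peaks per Mb in the left arm (123 to 147), 163 in the centre (153 to 173) and 186 in the right arm (172 to 201). The right arm was 1.38 times as dense as the left (1.23 to 1.56). The centre was 1.21 times as dense as the left arm (1.09 to 1.35) and 0.875 times as dense as the right arm (0.793 to 0.966). Against both arms together the centre stood at a ratio of 1.02 (0.940 to 1.11), because the 2 arms lie on either side of it.

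The order of centre and right arm was not the same in the replicates. Replicate 1 had 50.5 peaks per Mb in the left arm, 78.0 in the centre and 71.4 in the right arm. Replicate 2 had 130 in the left arm, 166 in the centre and 184 in the right arm. The left arm was lowest in both lists, with a ratio of right to left arm of 1.41 in replicate 1 (1.16 to 1.72) and 1.42 in replicate 2 (1.26 to 1.60). The centre over the right arm was 1.09 in replicate 1 (0.936 to 1.28) and 0.902 in replicate 2 (0.818 to 0.996). In bases covered, the centre led in the whole-series list: peaks covered 8.45% of the centre, 7.86% of the right arm and 6.09% of the left arm.

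Score and width also differed between the zones. The median score was 24.305 in the centre (quartiles 8.11 and 90.8), 13.90 in the left arm (6.95 and 66.6) and 13.78 in the right arm (5.79 and 47.9). Median width was 423.5 bp in the centre, 294 bp in the left arm and 303 bp in the right arm. Score and width were related across the 2220 peaks (Spearman's rho 0.82, given as a description), so these are not separate facts. In replicate 2 the centre was also highest, with median scores of 13.27, 22.37 and 13.92 from left arm to right arm. Median widths were 297, 420 and 301 bp in the same order, and the arms changed places in score. Whole-series scores on III followed those of replicate 2 closely (rho 0.99 over peaks in both replicates, against 0.75 with replicate 1). A match with replicate 2 therefore adds little to the whole-series result. In replicate 1 the centre was not highest: the median scores were 12.00 in the left arm, 11.72 in the centre and 8.85 in the right arm, and the median widths were 287, 274.5 and 258 bp. In each list the right arm had a lower median score than the centre, while the centre stood above the left arm in replicate 2 and the whole-series list and not in replicate 1.

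Divided by score, the zones crossed. In the lowest-scored 20% of the whole-series list, the right arm had 46.8 peaks per Mb (39.8 to 54.6), the centre 28.6 (24.6 to 32.9) and the left arm 26.6 (21.6 to 32.4). In this group the centre was 0.611 times as dense as the right arm (0.492 to 0.759). In the best-scored 20%, the centre had 42.2 peaks per Mb (37.4 to 47.4), the right arm 33.7 (27.8 to 40.4) and the left arm 28.2 (23.1 to 34.2). There the centre was 1.25 times as dense as the right arm (1.00 to 1.57) and 1.49 times as dense as the left arm (1.19 to 1.89). The ratio of centre to right arm rose with each score group, through 0.741, 0.815 and 1.10 between these ends. The lists of the replicates gave the same crossing at the ends, with 0.691 in the lowest-scored 20% of replicate 1 (0.502 to 0.957) and 1.31 in its best-scored 20% (0.917 to 1.89). In replicate 2 the values were 0.626 (0.504 to 0.778) and 1.24 (0.997 to 1.56). In both replicates the interval for the best-scored 20% includes 1. Between the ends the rise on III was not steady in replicate 1 (1.06, 1.49 and 1.19) or replicate 2 (0.844, 0.843 and 1.07). With zones as the same fractions of length, the whole-series ratio on V also rose with each group, from 1.41 to 2.28. From lowest to best group it went from 1.18 to 1.56 on I and from 1.16 to 1.78 on IV. It did not rise on II (1.09 and 1.09) or X (0.985 and 0.664).

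**Figure D3:**
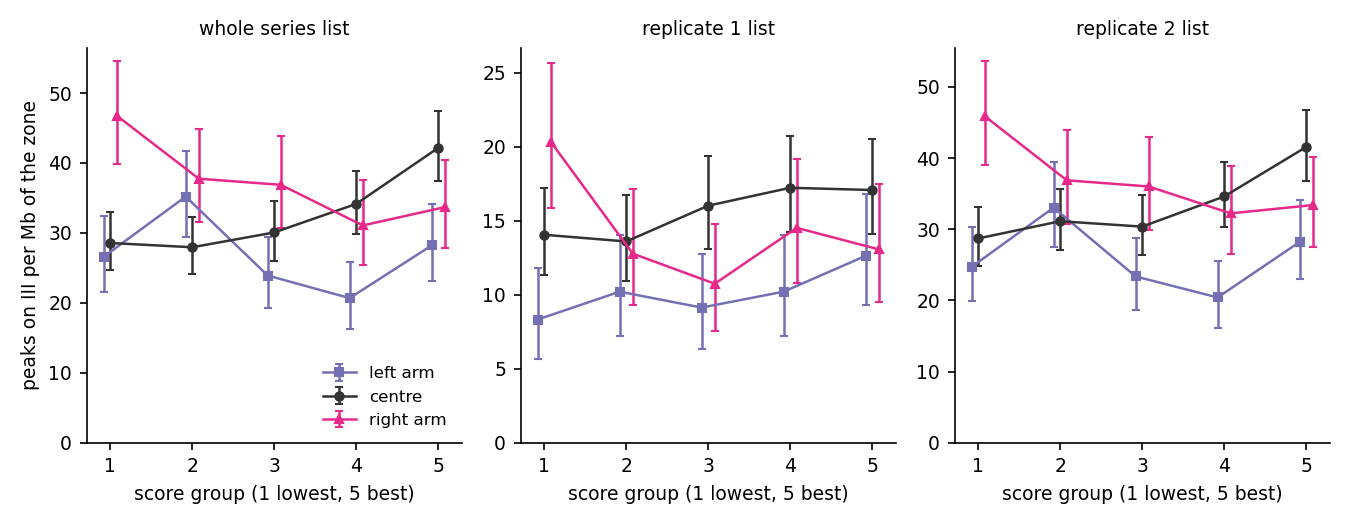
Chromosome III peaks per Mb of each zone (y axes, linear from 0, on separate scales) in 5 score groups of each list's nuclear peaks (x axes, 1 lowest, 5 best), with exact 95% intervals. In the whole-series list the right arm is highest at 46.8 per Mb in group 1 and the centre is highest at 42.2 per Mb in group 5.

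The zone bounds of III were applied to the other chromosomes as fractions of their length. The right arm of III was then the densest of 18 zones, followed by the centre of I at 168 per Mb and the centre of III. The ratio of the right arm of III to the centre of I was 1.11 (1.01 to 1.22), and this pair was chosen after the order was seen. In replicate 2 the right arm of III was also the densest of 18, and in replicate 1 it ranked 3 and the centre of III ranked 1. The centre stood at 1.16 times the density of the arms on I (1.07 to 1.26), 1.21 on II (1.10 to 1.33), 1.01 on IV (0.927 to 1.10), 1.47 on V (1.34 to 1.62) and 0.935 on X (0.845 to 1.03). The value of 1.02 on III therefore lies within the range of the others. The bounds taken for the other chromosomes are fractions of III and not their own recombination zones.

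Peaks either side of the zone bounds ranged widely in score. The last peak of the left arm, chrIII:3719437-3719964, scored 145.73, and the first of the centre, chrIII:3723827-3724035, scored 8.79. The last peak of the centre, chrIII:10339630-10339859, scored 8.82, and the first of the right arm, chrIII:10351058-10351203, scored 2.75.

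In windows of 500 kb, density rose from the left end towards the centre and then varied widely. The 27 full windows held 43 to 121 whole-series peaks, with a median of 79. The fewest, 43, lay in chrIII:1-500000, where replicate 1 had 30 and replicate 2 had 42. Those few peaks were strong ones: their median score was 35.07, and 22 of 43 were found in both replicates. The most, 121, lay in chrIII:5500001-6000000, in the centre, where replicate 1 had 40 and replicate 2 had 120. There the median score was 14.84, and 34 of the 121 were found in both replicates.

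The window richest in replicate 1 peaks was another one. At chrIII:7000001-7500000 replicate 1 had 54 peaks, the whole-series list 74 and replicate 2 had 79. Its median score of 45.31 was the highest of the chromosome, and 38 of its 74 peaks (51.4%) were found in both replicates. Over the 27 full windows, counts in the replicates were related with Spearman's rho 0.52 and Pearson's r 0.54. The whole-series counts followed replicate 2 (rho 0.98) more closely than replicate 1 (rho 0.49). These are descriptions over windows of one chromosome, and the whole-series list may be built from the same reads.

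**Figure D4:**
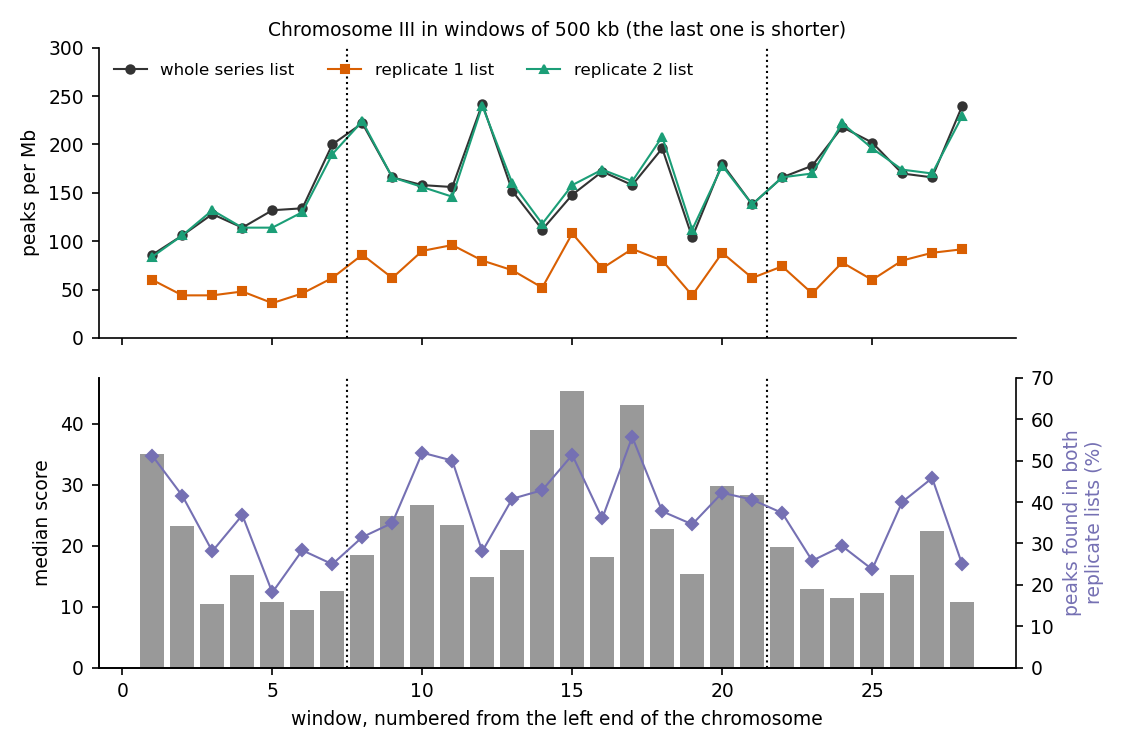
Upper panel: peaks per Mb (y axis) in windows of 500 kb along chromosome III (x axis, numbered from the left end; the last is 283.7 kb long) in the 3 lists; lower panel: median whole-series score (bars, left axis) and share of whole-series peaks found in both replicates (diamonds, right axis). Dotted lines mark the windows nearest the zone bounds. Window 12 holds the most whole-series peaks (121) with a median score of 14.84, and window 15 the most replicate 1 peaks (54) with a median score of 45.31.

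Of the 2220 peaks on III, 830 overlapped a replicate 1 peak by at least 1 bp (37.4%, 35.4 to 39.4), against 36.0% of all nuclear whole-series peaks. Replicate 2 was overlapped by 2106 (94.9%, 93.9 to 95.7), against 94.5% of all. Both replicates were overlapped by 805 (36.3%, 34.3 to 38.3), against 34.3% of all, and neither by 89 (4.01%, 3.27 to 4.91), against 3.84%. These shares are close to those of all nuclear peaks, so replicate support on III was near the background. The remaining peaks were in 1 replicate list: 1301 in replicate 2 alone (58.6%, against 60.2% of all) and 25 in replicate 1 alone (1.13%, against 1.62%). Seen from the replicates, 883 of the 950 replicate 1 peaks on III (92.9%, 91.1 to 94.4) overlapped a replicate 2 peak, against 90.1% of all nuclear replicate 1 peaks. In the other direction, 816 of the 2219 replicate 2 peaks (36.8%, 34.8 to 38.8) overlapped replicate 1, against 34.8% of all.

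Some replicate peaks had no counterpart in the whole-series list. On III these were 48 of replicate 1 (5.05%, 3.83 to 6.64, against 6.04% of all nuclear peaks of that list), with a median score of 3.015. In replicate 2 they were 105 (4.73%, 3.92 to 5.70, against 5.30%), with a median score of 3.85. Both shares are near those of all nuclear peaks. Of the 2220 whole-series peaks on III, 90 had exactly the first and last base of a replicate 2 peak and 0 those of a replicate 1 peak. This count was not made for the other chromosomes.

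Support followed score on III as it did elsewhere. In the best-scored 10% of the whole-series list, 258 of 260 peaks on III were found in both replicates (99.2%, 97.2 to 99.8), beside 97.8% on the other 5 chromosomes (96.7 to 98.6). In the lowest-scored 10%, 1 of 243 was (0.412%, 0.0727 to 2.29), beside 0.0991% on the others (0.0175 to 0.559). The median score was 104.92 for the 805 peaks in both replicates, 9.47 for those in replicate 2 alone, 6.30 for those in replicate 1 alone and 3.67 for those in neither. In the same order, median widths were 722, 257, 248 and 161 bp. Among the 805, replicate scores were related with Spearman's rho 0.69 (a description over peaks). Their whole-series scores had rho 0.99 with replicate 2 and 0.75 with replicate 1, so replicate 2 is not a separate check of that list.

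**Figure D5:**
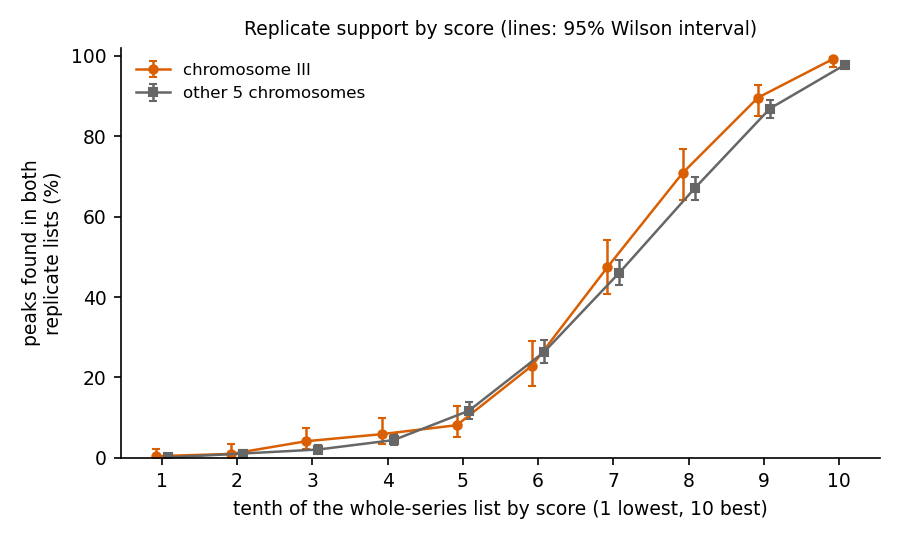
Share of whole-series peaks found in both replicate lists (y axis, percent) in 10 score groups of the nuclear list (x axis, 1 lowest, 10 best), for chromosome III and for the other 5 chromosomes, with 95% Wilson intervals. Both curves climb from under 1% to over 97%, and the 2 intervals overlap in each of the 10 groups.

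Support differed between the zones of III. In the centre, 445 of 1078 peaks were found in both replicates (41.3%, 38.4 to 44.2). In the left arm 154 of 501 were (30.7%, 26.9 to 34.9), and in the right arm 206 of 641 (32.1%, 28.6 to 35.8). The intervals of the arms overlap each other and not that of the centre, and the centre also had the higher scores. In each of the 5 score groups the intervals of the zones overlapped. In the best-scored 20%, both replicates held 96.1% of the centre's peaks (93.1 to 97.8), 92.4% of the left arm's (85.7 to 96.1) and 93.1% of the right arm's (87.0 to 96.5). The centre was highest in this group and the next, and the right arm in the groups below. In the middle group the right arm had 18.9% and the centre 15.6%. Whether score accounts for the difference between zones was not tested. Peaks in neither replicate were 2.32% in the centre (1.58 to 3.40), 5.99% in the left arm (4.23 to 8.42) and 5.30% in the right arm (3.82 to 7.32). Of the 25 peaks in replicate 1 alone, 15 lay in the left arm, 8 in the centre and 2 in the right arm. In the left arm, the replicate 1 peaks chrIII:2080007-2082618 and chrIII:3334846-3336244 each overlapped 3 of them. The 15 therefore do not stand for 15 separate replicate 1 peaks.

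Some strong peaks rested on replicate 2 alone. In the best-scored 20%, 473 of 500 peaks on III were in both replicates (94.6%, 92.3 to 96.3), beside 92.3% on the other 5 chromosomes (91.0 to 93.4). The rest on III were in replicate 2 alone. On the other chromosomes, peaks in replicate 2 alone scored up to 223.75. The best on III were chrIII:2304828-2305235 in the left arm, with a score of 196.15 in the whole-series list and 203.20 in replicate 2, and chrIII:13548838-13549480 in the right arm, with 161.97 and 169.43. The next, chrIII:3220272-3220679 in the left arm, scored 148.23 and 157.14. The first and last of these are each 408 bp wide, narrow for their score: the median width in the best-scored 20% on III was 786 bp. Peaks in replicate 1 alone were far weaker, led by chrIII:2498721-2500092 in the left arm with a score of 19.02 in the whole-series list and 21.44 in replicate 1. That stretch is part of a replicate 1 peak of 4659 bp, which overlapped 2 replicate 2 peaks elsewhere along its length. Next in this class came chrIII:7446617-7447063 (15.10 and 9.74) and chrIII:5356229-5356500 (11.96 and 10.17), both in the centre. Among peaks in neither list, the best-scored was chrIII:2105138-2105299 (162 bp) at 9.47.

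The 3 widest peaks lay in the centre. At chrIII:9052235-9055123, a peak of 2889 bp scored 223.57 and overlapped 3 peaks of replicate 1 (best score 54.01) and 1 of replicate 2 (242.55). Another at chrIII:7709624-7712317 (2694 bp, score 200.29) overlapped 3 of replicate 1 and 2 of replicate 2. The peak at chrIII:7374814-7377653 (2840 bp) scored 96.75 and overlapped 1 peak of each, with scores of 9.02 in replicate 1 and 99.40 in replicate 2. Of the 805 peaks in both replicates, 68 (8.45%) held 2 or more replicate 1 peaks and 27 (3.35%) held 2 or more replicate 2 peaks. These shares were not computed for the other chromosomes. Peaks of 1200 bp or more numbered 87 on III (3.92%, 3.19 to 4.81), of which 78 were in both replicates. Elsewhere they were 2.21% of peaks on X and 3.47 to 4.18% on the other autosomes. Most were in both replicates there too: 85 of 92 on I, 68 of 74 on II, 76 of 83 on IV, 58 of 64 on V and 31 of 34 on X.

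Peaks on III stood close together. A neighbour within 1 kb was present for 1132 of 2220 peaks (51.0%, 48.9 to 53.1), against 43.7% of all nuclear whole-series peaks. The share was 45.9% on I (43.9 to 47.9), 43.2% on IV, 42.3% on II, 39.2% on V and 37.4% on X, so III was the highest and its interval did not overlap that of I. Replicate 2 also put III first, at 49.8% (47.7 to 51.9) against 45.8% on I. Replicate 1 did not: III had 27.3% (24.5 to 30.2), below IV at 30.9% and V at 29.1%. A denser list gives closer neighbours, and its part in this order was not tested. Gaps on III had a median of 2536 bp, with quartiles of 715.5 and 7172.5 bp.

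Neighbours were most common in the right arm, where 57.6% of peaks had one within 1 kb (53.7 to 61.3), against 50.5% in the left arm (46.1 to 54.9) and 47.3% in the centre (44.3 to 50.3). The intervals of right arm and centre do not overlap, those of the 2 arms do, and in replicate 1 those of all zones do (24.5% in the left arm, 27.5% in the centre and 28.9% in the right arm). In the best-scored 20%, the share was 55.2% in the right arm (46.1 to 63.9) and 39.8% in the centre (34.2 to 45.6). In the lowest-scored 20% it was 64.6% (56.9 to 71.6) and 57.7% (50.5 to 64.5), with overlapping intervals. In the groups between, from low to high score, it was 54.6, 58.3 and 52.3% in the right arm and 58.4, 45.7 and 40.3% in the centre, so the centre was higher in 1 of the 5 groups, and these intervals overlap too. In each zone, peaks with a near neighbour had a lower median score than peaks without: 16.00 against 39.34 in the centre, 12.21 against 17.08 in the left arm and 12.21 against 16.64 in the right arm.

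Close peaks formed runs, here peaks joined by gaps of no more than 1 kb. Chromosome III had 156 runs of 3 or more peaks, which held 586 peaks (26.4%, 24.6 to 28.3), and 31 runs of 5 or more, which held 182 (8.20%, 7.13 to 9.41). Runs of 3 or more held 17.6 to 21.9% of peaks on the other chromosomes. On the other chromosomes, 4.13 to 6.15% of peaks were in runs of 5 or more, and the highest of these, II (5.13 to 7.37), overlaps III in its interval. Replicate 2 had 28 such runs on III with 7.39% of its peaks, and replicate 1 had 2 with 1.05%, below the share on I, IV, V and X. In runs of 3 or more, replicate 2 had 25.6% of its peaks on III, against 17.9 to 22.1% elsewhere. Replicate 1 had 8.32% on III, below the 9.01 to 11.4% elsewhere. Of the 31 runs, 14 lay in the centre, 11 in the right arm and 6 in the left arm. The longest held 13 peaks at chrIII:12218371-12226891 in the right arm, where the peaks covered 47.8% of 8521 bp; the longest run on any other chromosome in this list held 11. Replicate 2 also had 13 peaks there and replicate 1 had 3. By the replicate lists III did not hold the longest run. It had 15 peaks on IV in replicate 2 and 17 on I in replicate 1, against 13 and 5 on III.

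The members of the longest whole-series run on III were unequal. The first, chrIII:12218371-12219176, scored 99.91 in the whole-series list, 24.18 in replicate 1 and 87.84 in replicate 2. The strongest, chrIII:12225979-12226503, scored 137.43, 25.47 and 131.68 in the same order. Another found in both replicates, chrIII:12219255-12219642, scored 17.20, 3.64 and 13.98. The other 10 were in replicate 2 alone and scored from 3.20 to 17.46 in the whole-series list. Of the next longest runs, both of 8 peaks and both in the centre, chrIII:8124304-8130970 contained one of the best 20 peaks of the chromosome, chrIII:8125027-8126237 with a score of 325.07. The other, chrIII:6135200-6141854, reached 51.61.

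The left arm also had the longest stretches without a whole-series peak. These were chrIII:2173681-2271231 (97551 bp) and chrIII:1320887-1412237 (91351 bp), and each held 1 peak of each replicate list. Next in length, chrIII:12740826-12816039 in the right arm (75214 bp), held 3 replicate 2 peaks and none of replicate 1. Isolated peaks, with no neighbour within 10 kb, numbered 101 on III (4.55%, 3.76 to 5.50) and had a median score of 30.83. That share was 4.65% on I, 7.00 to 7.87% on II and IV, and 12.3 to 12.6% on X and V. At the ends of III, the first peak, chrIII:1-212, scored 34.04 in the whole-series list, 27.45 in replicate 1 and 25.88 in replicate 2. The last, chrIII:13783418-13783700, scored 61.78, 42.72 and 50.29.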

How the data were processed

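Per the submitters' processing notes, BWA was used with genome ce10; the file headers name WormBase WS220. Each of the 3 lists deposited by the authors (replicate 1, replicate 2 and whole series) gives a score per peak and names MACS as the source. The MACS version, its threshold, the use of input and the making of the series list are not stated in what was used here. Counts per Mb, widths, gaps and overlaps of at least 1 bp were computed with pandas 2.3.3 and SciPy 1.17.1 under Python 3.11.15 (NumPy 2.4.6; figures with matplotlib 3.10.9). The largest peak end on a chromosome, identical in the 3 lists, served as its length. A member's replicate score is that of its best overlapping peak. Score groups were formed from each list's nuclear peaks, leaving out 6 to 15 mitochondrial peaks per list. Ratios of densities have exact 95% intervals from the binomial distribution of 2 counts. The code was tested on simulated data. The members, zones and comparisons were chosen with earlier results of these data known. Regions are named by rule: the 20 best-scored peaks, the best 3 of each zone and support class, the 3 widest, the first and last, the 3 longest gaps and runs, and the windows with most and fewest peaks; others were chosen after their values were seen. Alternatives were single replicate lists, the peaks at or above the nuclear median score, peaks in both replicates, other zone bounds, chromosome ends left out, covered bases, autosomes only, and other overlap and distance limits.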

Additional observations from a re-analysis of the deposited data

How the results depend on the processing

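The density of III over the other chromosomes stayed above 1 under its 7 alternatives, at 1.46 to 1.53 by single replicate list. It was lowest against the other autosomes only, at 1.38 (1.32 to 1.45). Centre over both arms, 1.02 as reported, was 1.07 to 1.29 by single replicate list, 1.30 for peaks at or above the median score, 1.34 for peaks in both replicates and 1.22 in covered bases. Centre over right arm, 0.875 as reported, was 0.902 to 1.09 by single replicate list. It turned to 1.12 at or above the median score (0.974 to 1.30) and 1.12 for peaks in both replicates (0.951 to 1.33). In covered bases it was 1.08, with no interval computed. With 3 equal lengths it was 0.922 (0.834 to 1.02). Each interval given here includes 1, as does that of replicate 1 (0.936 to 1.28). Comparisons of single zones were added after the data were seen. The share in both replicates was 14.6% when at least 50% of the peak had to overlap and 67.7% at or above the median score. The share with a neighbour within 1 kb was 27.3 to 49.8% by single replicate list and 24.4% at or above the median score; within 500 bp it was 32.6% and within 2 kb 65.6%. The causes were not tested. The lists differ in length, and without read counts the depth at which a peak would be missed is unknown. No paired analysis was possible because the input libraries gave no values.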

Other observations

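The wide peaks of replicate 1 on III lay mostly in the left arm, and they were looked at after their values were seen. Of its peaks of 1200 bp or more on the chromosome, 8 lay in the left arm, 1 in the centre and 0 in the right arm, although the left arm held only 188 of its 950 peaks. In replicate 2, 21 such peaks lay in the left arm, 37 in the centre and 17 in the right arm. On the other chromosomes, replicate 1 had 2, 4 and 2 on I from left arm to right arm, and 3, 2 and 0 on II. It had 2, 2 and 2 on IV, 1, 1 and 3 on V, and 4, 2 and 1 on X. The left arm thus also held the most on II and X. The widest of replicate 1 on III, chrIII:2497236-2501894 (4659 bp), scored 21.44 and overlapped 2 replicate 2 peaks and 3 whole-series peaks. A pair side by side at chrIII:2077600-2079949 (2350 bp, score 18.51) and chrIII:2080007-2082618 (2612 bp, score 11.77) overlapped no replicate 2 peak. Farther right, chrIII:3334846-3336244 (score 7.53) also overlapped none. The other wide left-arm peaks of replicate 1 each overlapped at least 1 replicate 2 peak.

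One run in the centre was led by replicate 1. At chrIII:5353139-5358541, 7 whole-series peaks stood beside 6 peaks of replicate 1 and 2 of replicate 2, whereas over the whole of III replicate 2 had 2219 peaks to the 950 of replicate 1. Its scores ran from 5.96 to 32.84 in the whole-series list.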
